A study of Mus musculus with 2 samples.

Results

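Gzma-high natural killer (NK) cells of Colon26 tumours were 631 of the 7732 cells kept from 14 mice, or 8.16%. The cells were chosen by the measured levels of 6 genes, given as CP10k (reads of a gene per 10000 reads of the cell), so these levels are no finding. A member had Ncr1 at 1 CP10k or more and Gzma at 20 or more, with Trac under 2, Cd3e under 1, Lyz2 under 5 and C1qa under 1, limits set against T cells and macrophages. The same limits with Gzma under 20 CP10k gave 283 Gzma-low cells of the same mice, and the members were 69.0% of the 914 cells of both kinds. The number of members was 32 to 66 per mouse, that of Gzma-low cells 13 to 29, and no barcode was shared between mice.

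The cells came from wild-type BALB/c mice that carried Colon26, a line of colon carcinoma cells, under the skin. CD45+ cells (leukocytes) of each tumour were marked by a hashtag antibody and read as whole transcriptomes on the BD Rhapsody system, and the labels also call these tumour cells intestinal. Control mice (n = 3) carried the tumour and were untreated. The minP1 mice (n = 4) received an immunostimulatory peptide made from HMGN1, a nucleosome-binding protein, at 0.08 µg into the peritoneum on day 9 after inoculation. The PDL1 mice (n = 3) received anti-PD-L1 antibody, against the ligand of the inhibitory receptor PD-1, at 200 µg on days 4 and 8. The minP1_PDL1 mice (n = 4) received both agents on those days, and every tumour was taken on day 10. The number after a group name is the mouse. The design text speaks of separate experimental runs without naming a mouse's run, so run and treatment cannot be told apart.

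NK cells are lymphocytes that kill target cells by releasing granules of perforin, which opens membranes, and granzymes, the proteases that enter through them. Granzyme A, encoded by Gzma, is an abundant granzyme of mouse NK cells. Ncr1 encodes NKp46, an activating receptor of NK cells and of group 1 innate lymphoid cells (ILC1), their tissue-resident relatives. Mouse NK cells mature from Cd27-bearing cells to cells with Itgam (CD11b) and Klrg1, under the T-box factors Eomes and Tbx21, and Eomes separates NK cells from most ILC1. Ly49 receptors, the Klra family, bind MHC class I molecules and are found on subsets of NK cells.

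The start sites of the granule genes and of Ncr1 are shown because these genes carry the description of the cells, with those of Klra3 and Eomes beside them. The 150 bases before each start site are RefSeq sequence of build GRCm38.p6, 5′ to 3′ on the strand of the gene, and capitals mark TGTGGT (the core letters bound by RUNX factors) or AGGTGT (those of T-box factors) on either strand. The positions are chr13:113100982-113101131 on the minus strand for Gzma, chr14:56262335-56262484 on the minus strand for Gzmb, chr10:61297686-61297835 on the plus strand for Prf1 and chr7:4337565-4337714 on the plus strand for Ncr1. For Klra3 the position is chr6:130337627-130337776 on the minus strand and for Eomes chr9:118478039-118478188 on the plus strand.
Gzma: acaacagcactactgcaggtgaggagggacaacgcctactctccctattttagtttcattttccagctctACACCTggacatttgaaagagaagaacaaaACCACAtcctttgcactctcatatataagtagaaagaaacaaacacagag
Gzmb: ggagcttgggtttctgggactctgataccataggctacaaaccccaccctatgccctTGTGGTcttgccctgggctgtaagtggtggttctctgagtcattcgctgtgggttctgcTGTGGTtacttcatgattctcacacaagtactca
Prf1: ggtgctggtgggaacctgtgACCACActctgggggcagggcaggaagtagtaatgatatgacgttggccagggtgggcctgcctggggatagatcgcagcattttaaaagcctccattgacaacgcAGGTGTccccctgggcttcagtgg
Ncr1: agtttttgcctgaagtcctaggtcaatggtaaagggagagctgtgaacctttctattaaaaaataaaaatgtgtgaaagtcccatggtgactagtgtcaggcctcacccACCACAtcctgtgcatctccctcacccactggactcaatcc
Klra3: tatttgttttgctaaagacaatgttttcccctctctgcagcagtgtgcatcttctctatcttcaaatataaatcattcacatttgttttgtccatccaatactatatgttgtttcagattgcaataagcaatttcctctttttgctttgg
Eomes: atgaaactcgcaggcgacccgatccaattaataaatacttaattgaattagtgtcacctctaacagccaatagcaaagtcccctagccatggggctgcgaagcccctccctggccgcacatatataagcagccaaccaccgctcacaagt
Gzma had the T-box letters starting 80 bases before its start site and the RUNX letters 50 bases before it. Gzmb had the RUNX letters at 93 and 34 bases before the start, Prf1 at 130, with T-box letters at 24, and Ncr1 at 41. The letters of neither motif were in the windows of Klra3 and Eomes. Over the 250 bases before the start, 14.2% of 27025 promoters held the RUNX letters and 11.99% the T-box letters, and 5 of 18 and 3 of 18 promoters of genes higher in these cells (below) did. Of the genes lower in these cells 4 of 21 and 2 of 21 promoters did. A match is a run of letters and shows no binding.

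Gzma and Ncr1 were set by the gate, and their levels are a description. Gzma ran from 20.9 to 419 CP10k in members, with a median of 100, and took 1.05% of all their reads. In Gzma-low cells its median was 0.196 CP10k, the highest 19.9, and 124 cells had no read. Near the limit, 33 members lay at 20 to 30 CP10k and 42 Gzma-low cells at 10 to 20. Members held 36.6% of all Gzma reads of kept cells, 32.1% of Ncr1, 28.8% of Klra3 and 27.5% of Eomes.

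**Figure D1:**
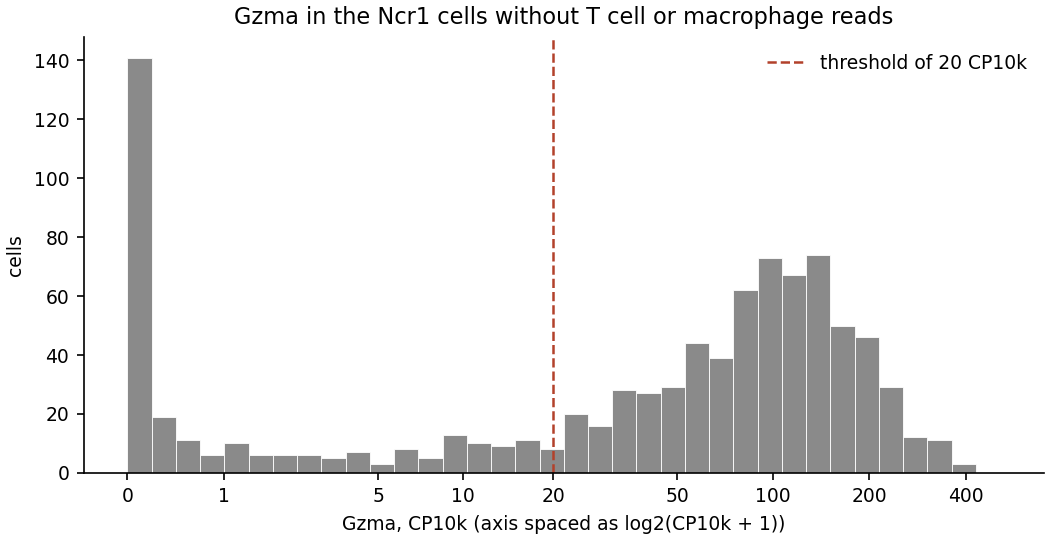
Number of cells (vertical axis) by Gzma in CP10k (horizontal axis, spaced as log2 of CP10k plus 1) in 914 cells. These have Ncr1 at 1 CP10k or more and lie under the limits of Trac, Cd3e, Lyz2 and C1qa, without being free of T cell or macrophage reads. The dashed line is the limit of 20 CP10k. The 631 members form a broad peak around their median of 100, and 124 cells lie at 0.

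Summed per mouse and scaled to CPM (reads of a gene per 1000000 reads of the sum), Gzma was 10163.9, 9617.0 and 12582.7 in Control, 11014.5, 8189.3, 10699.6 and 9256.4 in minP1, 11073.8, 10096.8 and 11809.7 in PDL1, and 11098.7, 11037.2, 10346.6 and 9907.0 in minP1_PDL1. The 4 groups overlapped. Ncr1 was 755.4, 912.4 and 835.8 CPM in Control, 939.1, 901.8, 966.7 and 888.8 in minP1, 1001.3, 1025.6 and 680.7 in PDL1, and 1158.9, 948.0, 950.2 and 869.6 in minP1_PDL1. Its mean was 917 ± 116 CPM (SD, n = 14) in members and 959 ± 193 in Gzma-low cells, at similar levels on both sides of the limit.

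Klra3, which encodes the Ly49C receptor, and Eomes were given as markers of these cells with earlier results known, so their difference from Gzma-low cells is a description with no test. Klra3 was 589.4, 520.3 and 536.7 CPM in Control members, 420.9, 660.0, 503.8 and 687.7 in minP1, 471.8, 896.5 and 875.7 in PDL1, and 523.9, 924.2, 822.7 and 602.7 in minP1_PDL1. It was higher than in the same mouse's Gzma-low cells in 14 of 14 mice, at 645.5 ± 170 against 232.7 ± 121 CPM. A Klra3 read was found in 59.6% of members and 27.9% of Gzma-low cells, against 6.10% of 869 T cells and 20.1% of 408 macrophages. Eomes was 380.1, 337.8 and 363.7 CPM in Control members, 488.9, 332.8, 461.7 and 506.8 in minP1, 280.1, 563.6 and 481.0 in PDL1, and 402.7, 397.1, 380.1 and 287.8 in minP1_PDL1. Its mean was 405 ± 84.9 CPM against 186 ± 98.9 in Gzma-low cells, higher in 14 of 14 mice, with a read in 66.2% against 40.3% of cells. In T cells 10.0% had an Eomes read, and in macrophages 18.4%, at median depths of 27531 and 95141 reads per cell against 30544 in members and 38436 in Gzma-low cells.

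Further receptors outside the gate were read in members, and they alone do not set NK cells apart from ILC1 or T cells. Il2rb, the shared beta chain of the IL-2 and IL-15 receptors, had a read in 98.7% of members, at 1995 ± 230 CPM. Klrk1 (NKG2D) was read in 60.4% and Klrb1c in 53.2%, and the T cell gate had Klrb1c in 2.30%. T cell transcripts were present too. The 12 T cell markers in the table summed to 968 to 1533 CPM in members against 4300 to 5415 CPM in T cells, and Trbc2, a T cell receptor constant region, had a read in 78.3% of members. The limits on Trac and Cd3e, which members lie under and the T cells above, set the lower T cell sum of members in part. That sum does not separate transcripts made by NK cells from free RNA, and this was not tested.

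The word mature describes some of the members by their reads. Itgam without Cd27 was read in 31.9% of members, Cd27 without Itgam in 10.5%, both in 8.08% and neither in 49.6%. In Gzma-low cells the shares were 17.0%, 18.7%, 8.48% and 55.8%. Klrg1, an inhibitory receptor of terminally mature NK cells, was read in 36.1% of members and Klrg1 together with Itgam in 16.3%, against 10.2% and 4.59% of Gzma-low cells. Klrg1 was also read in 15.2% of T cells, and Itgam in 17.0% of them. Whether those reads come from the T cells or from free RNA was not tested. S1pr5, which guides NK cells out of tissues, was read in 3.33% of members, and Cx3cr1, a chemokine receptor of terminal maturation, in 6.02%.

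Members differed among themselves in Ly49 receptors. Of the 13 Ly49 genes counted, 22.5% of members had no read, 15.4% had 1 gene, 31.2% had 2, 14.7% had 3 and 9.67% had 4, with up to 7 in a cell. In Gzma-low cells 54.1% had none and 16.3% had 2, although these cells held more reads. Klra3 without Klrc1, the NKG2A chain that binds Qa-1, was read in 25.99% of members and 6.36% of Gzma-low cells, and Klrc1 without Klra3 in 25.04% and 56.9%. Ly49 genes are near copies of each other, and reads were aligned to the mm10 transcriptome, a C57BL/6 reference, although the mice are BALB/c. Reads may therefore be split among Klra3, Klra9 and Klra7, and 2 genes in a cell need not be 2 receptors. Klra8 (Ly49H), known to be missing from BALB/c, had 1 read in 1 of 631 members.

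The gene content of members was compared with that of Gzma-low cells of the same mouse, leaving the 6 genes of the gate out. Among others, Gzmb, Prf1, the chemokine Ccl5 and the Ly49 gene Klra7 were higher in members, and Ly6c2, Xcl1, Kit and the ILC1-associated Rora and Tnfsf10 were lower. Of 7885 genes tested 52 passed at an adjusted p under 0.05, or 0.659%, with 28 higher in members (0.355%) and 24 lower (0.304%). The 28 include Klra3 and Eomes, which are left out of the counts and medians of lists below. Some genes, among them Gzmb and Xcl1, belong to more than 1 list and are counted in each. The lists were chosen with earlier results of these data known. Their counts beside the shares of all genes are therefore a description and no independent support. The median log2 change of all genes tested was 0.17, and 66.9% lay above 0. Without the mouse term this median was 0.005, so the general shift above 0 depends on the fit. DESeq2 called 295 genes, of which 209 were higher and 86 lower, and all 52 were among them. The comparison splits a continuous Gzma level, and genes that go along with Gzma from cell to cell have to differ in it. Below, "rose" and "fell" mean higher or lower in members than in Gzma-low cells. Cells "with macrophage reads" are those with at least 1 CP10k summed over 13 macrophage markers. Cells "without" them lie under this limit and can still hold some, and 278 of 631 members had none.

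Among granule genes, Gzmb (granzyme B) ran from 2995.7 to 6423.1 CPM in members, with a median of 4047.4, and from 1404.5 to 3051.3 in Gzma-low cells, with a median of 1693.8. It was higher in members of every mouse, and the ranges over mice overlapped in their ends alone. The log2 rise was 1.21 (SE 0.09, adjusted p = 4.08e-08), and 92.2% against 71.0% of cells had a read. Prf1 (perforin) was 661.0 to 1034.4 CPM in members and 135.3 to 637.7 in Gzma-low cells, 2 ranges without overlap. Its log2 rise was 1.40 (SE 0.14, adjusted p = 2.95e-06), in 14 of 14 mice. Nkg7, a granule membrane protein needed for degranulation, rose by 0.52 on the log2 scale (1541 ± 99.0 against 1127 ± 257 CPM, 13 of 14 mice, adjusted p = 0.00532). Serpinb6b, a protease inhibitor, rose by 0.65 (13 of 14 mice, adjusted p = 0.00154). With these, 4 of 16 tested granule genes rose, against 0.355% of all genes, and none fell (median 0.37). Not all granzymes moved with Gzma. Gzmc was at 2440 ± 1597 CPM in members and 3315 ± 1973 in Gzma-low cells (log2 -0.53, SE 0.37, adjusted p = 0.776). Srgn, the granule proteoglycan serglycin, was at 2418 ± 490 against 2616 ± 754 CPM, and Gzmk had a read in 5.71% of members. None of 11 genes of granule release passed (median 0.17).

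Chemokines moved in opposite directions. Ccl5, which attracts T cells, monocytes and NK cells, was 1280.3 to 3886.7 CPM in members, with a median of 2122.1, and 96.7 to 1284.6 in Gzma-low cells, with a median of 425.0. The ranges met only at their ends, and the log2 rise of 2.47 (SE 0.16, adjusted p = 6.40e-09) was found in 14 of 14 mice. Ccl4, an inflammatory chemokine, rose by 1.53 (1100 ± 325 against 503 ± 422 CPM, 13 of 14 mice, adjusted p = 0.00913), a call that ended without the mouse term (log2 1.16, adjusted p = 0.0744). Xcl1, which attracts conventional type 1 dendritic cells, fell by 1.07 (1197 ± 391 against 2655 ± 1029 CPM, lower in 13 of 14 mice, adjusted p = 0.00162). Tnfsf10, the death ligand TRAIL, was 4.1 to 86.4 CPM in members and 50.3 to 151.0 in Gzma-low cells. It was lower in members of every mouse, by 2.23 on the log2 scale (SE 0.30, adjusted p = 0.000126). Of 11 tested cytokine genes 2 rose and 2 fell (median 0.47), against 0.355% and 0.304% of all genes. Ifng was at 158 ± 70.6 against 132 ± 103 CPM (log2 0.47, adjusted p = 0.777), and Tnf at 45.7 ± 26.7 against 92.6 ± 57.0 (log2 -0.97, adjusted p = 0.126).

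**Figure D2:**
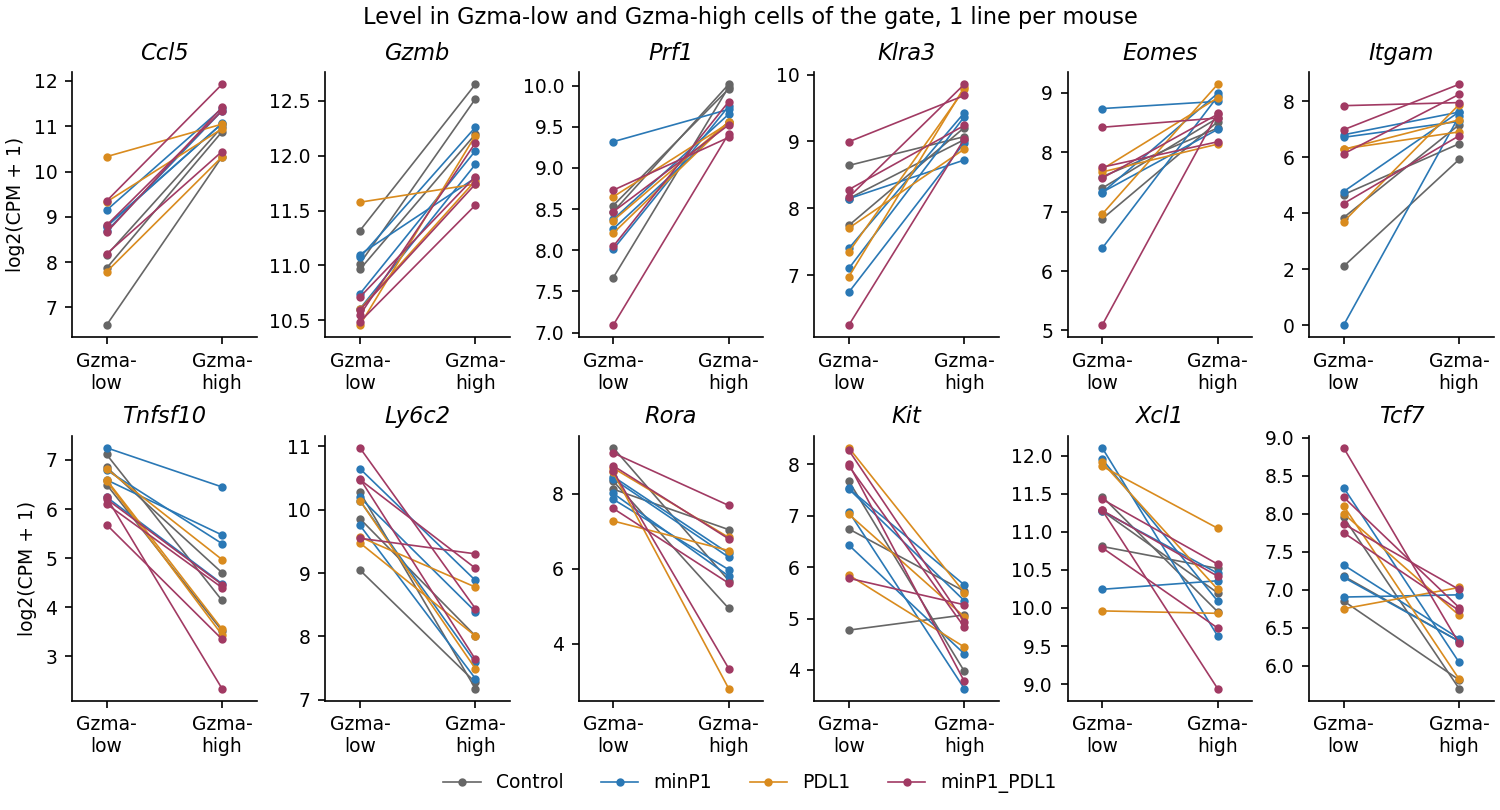
Level of 12 genes as log2 of CPM plus 1 (vertical axis, its own range in each panel) in Gzma-low and Gzma-high cells, with 1 line per mouse coloured by treatment group. The 14 lines of Ccl5, Gzmb, Prf1, Klra3, Eomes and Itgam all rise and those of Tnfsf10, Ly6c2 and Rora all fall, while 1 or 2 of the 14 lines of Kit, Xcl1 and Tcf7 go the other way. Klra3 and Eomes were given as markers and are shown as a description.

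Besides the marker Klra3, described above, 5 of the 12 Ly49 genes of the list were tested. Of these 2 rose, Klra7 and Klra9, with a median of 1.87, against 0.355% of all genes. Klra12, a Klra gene outside the list, also rose (38.8 ± 31.6 against 6.16 ± 13.2 CPM, log2 4.70, 13 of 14 mice, adjusted p = 0.00551). It kept its call when any 1 mouse was left out. Klra7 (Ly49G) was at 179.5 ± 54.5 CPM in members and 64.5 ± 45.9 in Gzma-low cells (log2 1.78, SE 0.33, 12 of 14 mice, adjusted p = 0.00532). Klra9 was at 42.2 ± 11.1 against 12.9 ± 7.29 CPM (log2 1.90, 14 of 14 mice, adjusted p = 0.0236). That call for Klra9 ended when any 1 of 6 mice was left out, with an adjusted p of up to 0.0724, and in cells without macrophage reads (log2 2.00, adjusted p = 0.109). Klra5 was at 53.2 ± 49.5 against 76.0 ± 65.6 CPM and did not pass.

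Other receptors were mixed, with 1 of 23 tested genes higher and 2 lower (median 0.07), against 0.355% and 0.304% of all genes. Klri2, a lectin-like receptor of the NK gene complex, rose by 0.91 on the log2 scale (14 of 14 mice, adjusted p = 0.00162). Cd226 (DNAM-1), an activating receptor for nectin-like ligands, was 25.8 to 211.0 CPM in members and 126.3 to 469.6 in Gzma-low cells. It fell by 1.603 (SE 0.18, adjusted p = 1.83e-05) and was lower in 14 of 14 mice. Klrc1 fell by 0.61 (547 ± 112 against 879 ± 267 CPM, 12 of 14 mice, adjusted p = 0.0117). Klrk1 was at 326 ± 45.7 against 316 ± 82.5 CPM. Sh2d1a, the adaptor SAP of the SLAM receptors, was the single gene of 17 adaptors and signalling genes that passed (log2 1.34, adjusted p = 0.0424), and its call ended when any 1 of 10 mice was left out (adjusted p up to 0.105).

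Late maturation genes rose in 4 of 11 and fell in 1 of 11 tested (median 1.21), against 0.355% and 0.304% of all genes. Itgam was 59.7 to 390.1 CPM in members and 0 to 229.2 in Gzma-low cells. It was higher in 14 of 14 mice (log2 2.12, SE 0.40, adjusted p = 0.00638), a call that ended without the mouse term (log2 1.54, adjusted p = 0.110). Klrg1 was at 176 ± 57.6 against 52.9 ± 47.6 CPM and higher in 14 of 14 mice, with an adjusted p of 0.0671 (log2 2.30, SE 0.57), so it did not pass. Gzmb and Irf8 (2397 ± 301.4 against 1733 ± 436 CPM, 13 of 14 mice) also rose, as did Lgals1 by 0.27 on the log2 scale. The call for Lgals1 (adjusted p = 0.0335) ended when any 1 of 11 mice was left out. Ly6c2, a surface protein of the Ly6 family that marks resting mature NK cells and monocytes, went the other way. It was 143.7 to 630.4 CPM in members and 527.6 to 2012.0 in Gzma-low cells, a fall of 1.92 (SE 0.19, 14 of 14 mice, adjusted p = 2.64e-06). Ly6c1, a near copy that may share its reads, fell by 1.88.

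Early maturation genes fell in 4 of 11 tested, against 0.304% of all genes, and rose in none (median -0.65). Kit, the stem cell factor receptor, was 11.4 to 49.4 CPM in members and 26.4 to 319.4 in Gzma-low cells, lower in 13 of 14 mice (log2 -2.29, SE 0.34, adjusted p = 0.000474). Emb, an adhesion glycoprotein, fell by 1.19 and Tcf7, a factor of early NK development, by 1.22 (88.2 ± 27.1 against 221 ± 101 CPM, 12 of 14 mice, adjusted p = 0.00529). Xcl1 was the other. Cd27 itself was at 41.2 ± 24.6 against 61.2 ± 31.0 CPM and did not pass (log2 -0.58, SE 0.37, adjusted p = 0.749).

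Genes linked to ILC1 and tissue residency lay below 0 in 14 of 15 tested, against 2606 of 7885 over all genes. Of the 15, 3 fell, against 0.304% of all genes (median -1.19). Rora, a nuclear receptor of innate lymphoid cells, was 6.0 to 205.8 CPM in members and 154.2 to 599.2 in Gzma-low cells, lower in every mouse (log2 -2.38, SE 0.33, adjusted p = 0.000265). Tmem176b fell by 3.17 (22.4 ± 22.8 against 146 ± 74.0 CPM, 14 of 14 mice, adjusted p = 0.000501), and Tnfsf10 is described above. The 2 residency genes most used to define ILC1 did not pass. Itga1 (CD49a) was at 40.8 ± 16.4 against 49.1 ± 37.7 CPM, and Cxcr6 at 13.3 ± 13.9 against 43.5 ± 38.5. Eomes without Itga1 was read in 56.4% of members and 34.98% of Gzma-low cells, and Itga1 without Eomes in 3.96% and 9.54%.

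Besides the marker Eomes, 3 of 17 tested NK transcription factors rose, Irf8, Runx3 and Klf2, and Tcf7 fell (median 0.13). Over all genes 0.355% rose and 0.304% fell. Klf2, which holds lymphocytes in recirculation, rose by 0.86 (1145 ± 444 against 663 ± 290 CPM, 12 of 14 mice, adjusted p = 0.0100). Runx3 rose by 0.60 (312.1 ± 67.0 against 215 ± 71.5 CPM, 13 of 14 mice, adjusted p = 0.00758), and lost its call without the mouse term (log2 0.57, adjusted p = 0.0673) and in cells without macrophage reads (log2 0.67, adjusted p = 0.0801). Tbx21 (T-bet), the partner of Eomes, was at 96.9 ± 23.7 against 111 ± 50.5 CPM (log2 -0.06, SE 0.20), and Zeb2 at 61.2 ± 50.7 against 44.3 ± 38.4.

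**Figure D3:**
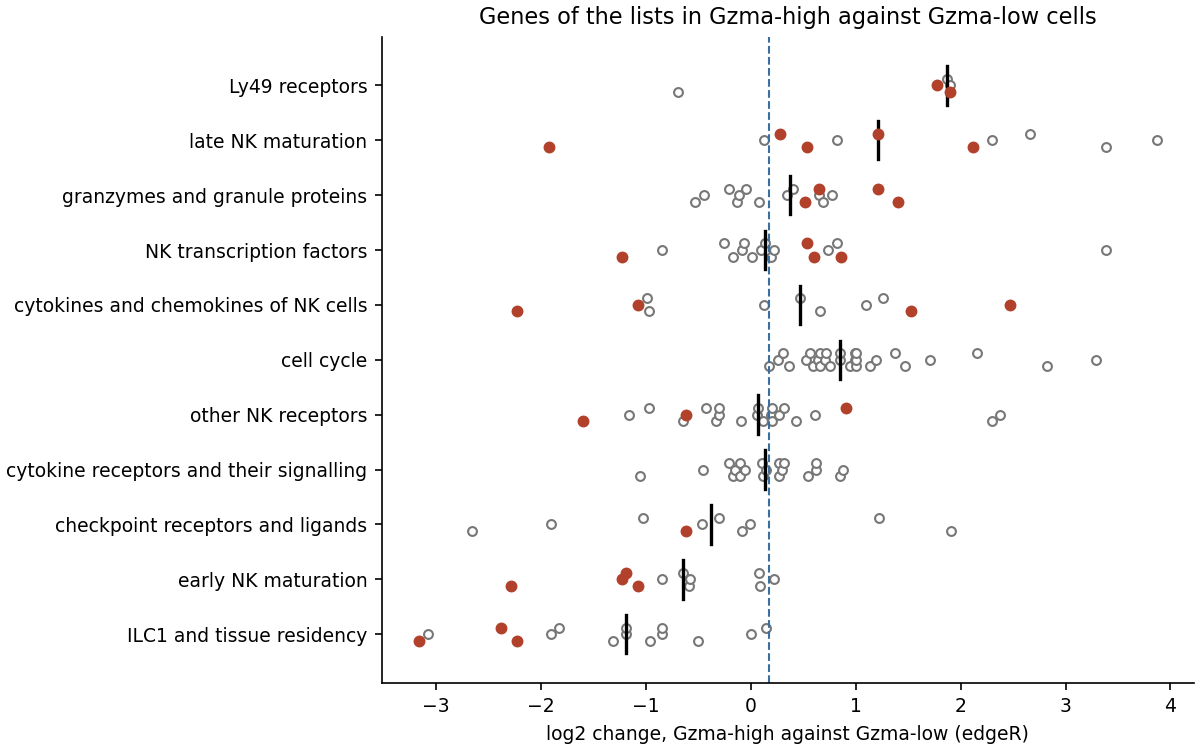
Log2 change of Gzma-high against Gzma-low cells (horizontal axis) for each tested gene of 11 lists (rows), without the markers Klra3 and Eomes. Filled points passed at an adjusted p under 0.05, open points did not, black bars are the medians of the lists and the dashed line is the median of all genes, 0.17. Ly49 and late maturation genes lie to the right (medians 1.87 and 1.21), early maturation and ILC1 genes to the left (-0.65 and -1.19), and all 29 cell cycle genes lie above 0 with none filled.

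Outside the lists, Serpinb9b, an inhibitor of the serpin family, was 166.1 to 422.2 CPM in members and 0 to 117.1 in Gzma-low cells, without overlap (log2 4.51, SE 0.62, adjusted p = 0.000209). Nrarp, a feedback regulator of Notch signalling, rose by 1.39 and Tmsb15a by 4.47, both in 14 of 14 mice. Krt83, a hair keratin gene, was 0 to 67.0 CPM in members and 42.9 to 385.0 in Gzma-low cells (log2 -3.95, SE 0.42, adjusted p = 5.93e-06). Bcl2a1d, a survival gene with near copies, fell by 1.40, Amica1, an adhesion molecule, by 1.66 and Ramp1, the co-receptor of the neuropeptide CGRP, by 1.40, each in 14 of 14 mice. Trdc, the delta constant region of the T cell receptor, was the single T cell marker of 6 tested that rose (274 ± 65.9 against 123 ± 51.3 CPM, log2 1.29, 14 of 14 mice, adjusted p = 0.00162). It lost its call in cells without macrophage reads (log2 1.02, adjusted p = 0.0865), while the summed T cell markers were 1194 ± 149 CPM in members and 1168 ± 289 in Gzma-low cells.

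No gene of cell cycle (29 tested), interferon response (22), cytokine receptors (20), immediate early genes (20), hypoxia and glycolysis (17), migration (13), heat shock (10) or TGF-beta (10) passed. All 29 cell cycle genes lay above 0, against 66.9% of all genes, with a median of 0.85 against 0.17 for all genes. These values belong to the fit with the mouse term. Without it the median of all genes was 0.005, and that of the cell cycle genes was not computed. The 29 genes were not tested as a set, and their common direction is no count of cycling cells. Mki67, a proliferation marker, was at 166 ± 86.9 against 142 ± 119 CPM and read in 19.5% and 18.7% of cells. The 13 macrophage markers summed to 52.5 to 3302.4 CPM in members and 20.9 to 3958.9 in Gzma-low cells, against 6696.8 to 13741.9 in macrophages, and 21.4% of members and 25.4% of Gzma-low cells had at least 1 CP10k of them. Without those cells 47 genes passed, of which 42 were among the 52, in the 12 mice with enough cells.

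Transcripts of the targets of the reagents differed in how often they were read. Pdcd1, the PD-1 receptor, was at 0 to 42.1 CPM in members, with a median of 4.7, and read in 2.54% of them. Cd274 (PD-L1) was at 56.1 to 211.6 CPM, with a median of 108.5, and read in 30.9%. Tlr4, a receptor described for HMGN1, was at 0 to 69.1 CPM, with a median of 13.6, and read in 6.18%. The difference from Gzma-low cells passed for none of the 3 in edgeR.

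Differences between groups in the share of Gzma-high cells among kept cells did not pass. The share was 8.88%, 9.58% and 7.58% in Control, 7.27%, 6.70%, 9.12% and 9.50% in minP1, 7.04%, 8.80% and 9.13% in PDL1, and 7.72%, 9.30%, 6.57% and 6.38% in minP1_PDL1. The groups overlapped, with means of 8.68% ± 1.01, 8.15% ± 1.37, 8.32% ± 1.12 and 7.49% ± 1.34, and the permutation test over the 4 groups gave p = 0.619 (adjusted over 6 measures 0.791). A share is relative to the other cells of the tumour and does not give their number.

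Within the Ncr1 gate the share of Gzma-high cells was lowest with both agents. It was 69.4%, 68.9% and 71.7% in Control, 68.3%, 70.2%, 71.0% and 71.8% in minP1, 72.3%, 70.7% and 75.4% in PDL1, and 66.2%, 69.0%, 66.7% and 54.7% in minP1_PDL1. The minP1_PDL1 mice did not overlap the PDL1 mice and overlapped Control and minP1 through 1 mouse. The permutation test over the 4 groups gave p = 0.0121, and 0.0727 after adjustment over 6 measures, so the difference did not pass. The minP1_PDL1 mean lay 8.68 points under that of PDL1 (two-sided exact permutation p = 0.0571), 6.18 under minP1 (exact p = 0.0571) and 5.85 under Control (exact p = 0.143). Each of these had an adjusted p of 0.779 over 30 comparisons, where the smallest exact p for 3 against 4 mice is 0.0286. The lowest mouse was minP1_PDL1_4, without which the differences were 5.54, 3.03 and 2.70 points. With the Gzma limit at 40 CP10k the adjusted permutation p of this share was 0.921, and without minP1_PDL1_2 it was 0.00948, a difference that passed.

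**Figure D4:**
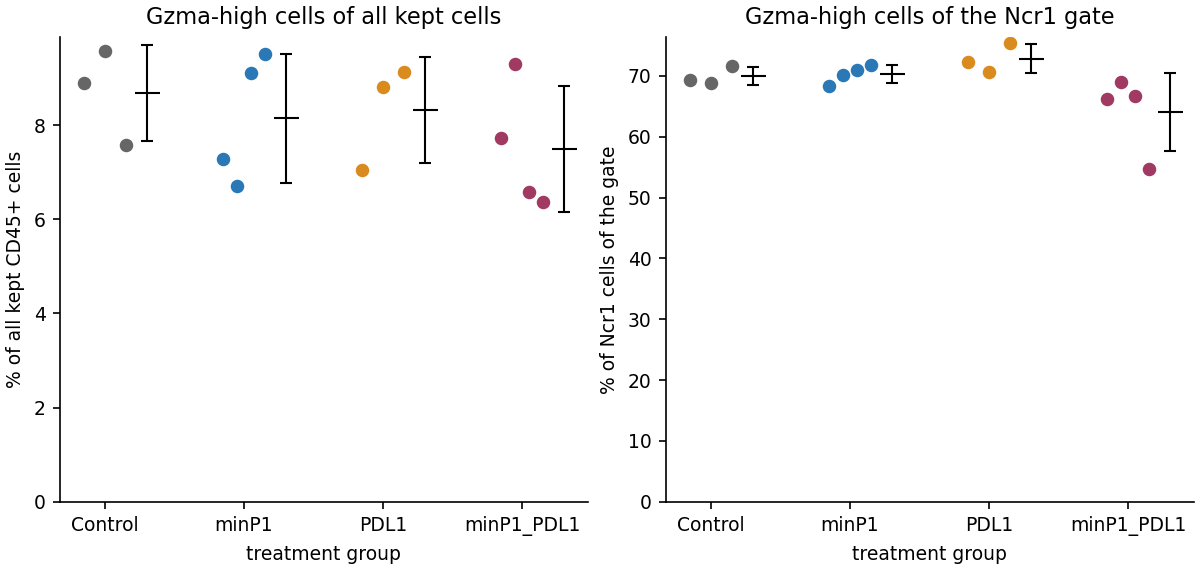
Share of Gzma-high cells (percent, vertical axes from 0) among all kept cells (left) and among cells of the Ncr1 gate (right) by treatment group, with 1 point per mouse and the mean with SD beside them. The left shares run from 6.38% to 9.58% in overlapping groups, and on the right minP1_PDL1_4 lies lowest at 54.7%.

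Treatment was then compared within the members, with reads summed per mouse. Gzmb and Prf1 were at lower levels in treated mice, Serpina3g in mice given minP1, and Cd69 was at higher levels in PDL1 mice. None of these differences passed in edgeR, and DESeq2 called some of them, as given below for each gene. None of 10794 genes passed in edgeR in any of the 6 comparisons (0% called). At an unadjusted p under 0.05 there were 360 genes for minP1, 470 for PDL1 and 724 for minP1_PDL1 against Control, 615 for minP1_PDL1 against PDL1, 584 against minP1 and 439 for the interaction, the effect of both agents beyond those of each alone. DESeq2 called 5, 6, 41, 5, 8 and 3 genes in the same order. The comparisons with Control share the same 3 Control mice.

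Gzmb was 6423.1, 5856.4 and 4688.4 CPM in Control, 3558.7, 3874.4, 4898.0 and 4220.4 in minP1, 4646.2, 3495.9 and 3422.2 in PDL1, and 4438.7, 3421.3, 2995.7 and 3589.3 in minP1_PDL1. Control lay above all PDL1 and minP1_PDL1 mice and overlapped minP1 through 1 mouse. The log2 differences from Control were -0.51 (SE 0.16), -0.60 (SE 0.17) and -0.69 (SE 0.16). With both agents the adjusted p was 0.517 in edgeR and 0.0089 in DESeq2, and 0.0753 in DESeq2 without cells with macrophage reads.

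Prf1 was 1034.4, 995.5 and 1011.0 CPM in Control, 804.0, 860.3, 753.9 and 837.4 in minP1, 754.2, 745.6 and 754.2 in PDL1, and 682.1, 893.8, 661.0 and 734.4 in minP1_PDL1. Every treated mouse lay under every Control mouse, and how many of all genes did so was not counted. The log2 differences from Control were -0.38, -0.47 and -0.49 (SE 0.13, 0.14 and 0.13), with an adjusted p of 1, 1 and 0.572 in edgeR and of 0.0556 for both agents in DESeq2. The 18 tested granule genes had medians of -0.34, -0.40 and -0.42 against Control and 0.01, -0.01 and -0.01 over all genes. None of the 18 passed in edgeR, and DESeq2 called Gzmb for both agents. Ccl5 was at 1728 ± 392 CPM in Control, 2386 ± 295 in minP1 mice, 1787 ± 445 in PDL1 mice and 2650 ± 1021 in minP1_PDL1. The minP1 mice lay above all Control mice for Ccl5 (log2 0.41, adjusted p = 1), and the other groups overlapped.

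Serpina3g, an intracellular serine protease inhibitor, was lower where the peptide was given. It was 171.8, 86.3 and 154.8 CPM in Control, 32.8, 50.5, 45.4 and 57.0 in minP1, 116.6, 145.3 and 85.0 in PDL1, and 29.4, 43.7, 35.8 and 35.8 in minP1_PDL1. The 8 mice given minP1 lay under the 6 mice that were not, for a gene named by its small p. The log2 difference was -1.62 (SE 0.34) for minP1 against Control, -1.97 (SE 0.34) for both agents against Control and -1.68 (SE 0.34) for both against PDL1. The adjusted p was 1, 0.243 and 0.700 in edgeR and 0.0423, 0.00135 and 0.0322 in DESeq2. Without cells with macrophage reads all 3 DESeq2 calls ended (adjusted p = 0.347, 0.0753 and 0.293). Reads came from 31 of 143 Control cells, 32 of 208 minP1 cells, 34 of 121 PDL1 cells and 19 of 159 minP1_PDL1 cells. In Gzma-low cells, where Serpina3g was higher (log2 change of members -1.43), the groups overlapped at 114.4 to 330.8 CPM.

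Cd69, an early activation marker that also retains lymphocytes in tissue, was 402.7, 268.8 and 218.3 CPM in Control, 306.6, 254.2, 353.3 and 268.4 in minP1, 653.1, 895.8 and 545.5 in PDL1, and 388.5, 502.7, 518.5 and 799.0 in minP1_PDL1. PDL1 mice lay above all Control and minP1 mice, and 1 of the 4 minP1_PDL1 mice fell within the Control range. How many of all genes separate the PDL1 mice in this way was not counted. The log2 difference was 1.19 (SE 0.27) for PDL1 and 0.84 (SE 0.26) for both agents against Control, with an adjusted p of 1 and 0.675 in edgeR and of 0.0198 and 0.0760 in DESeq2. The DESeq2 call for PDL1 held without cells with macrophage reads (adjusted p = 0.0352). A Cd69 read was found in 55.2% of Control, 57.7% of minP1, 75.2% of PDL1 and 69.2% of minP1_PDL1 members. Gadd45b, a stress response gene, was at 130 ± 24.9 CPM in minP1 and 335 ± 86.1 in minP1_PDL1 (log2 1.38, adjusted p = 0.423 in edgeR and 0.00182 in DESeq2). Rgs2, a brake on G protein signalling, was at 758 ± 52.9 CPM in Control, 1127 ± 227 in minP1 mice, 1049 ± 133 in PDL1 mice and 1318 ± 206 in minP1_PDL1. For both agents against Control its log2 difference was 0.75 (SE 0.16, adjusted p = 0.517 in edgeR and 0.00135 in DESeq2).

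**Figure D5:**
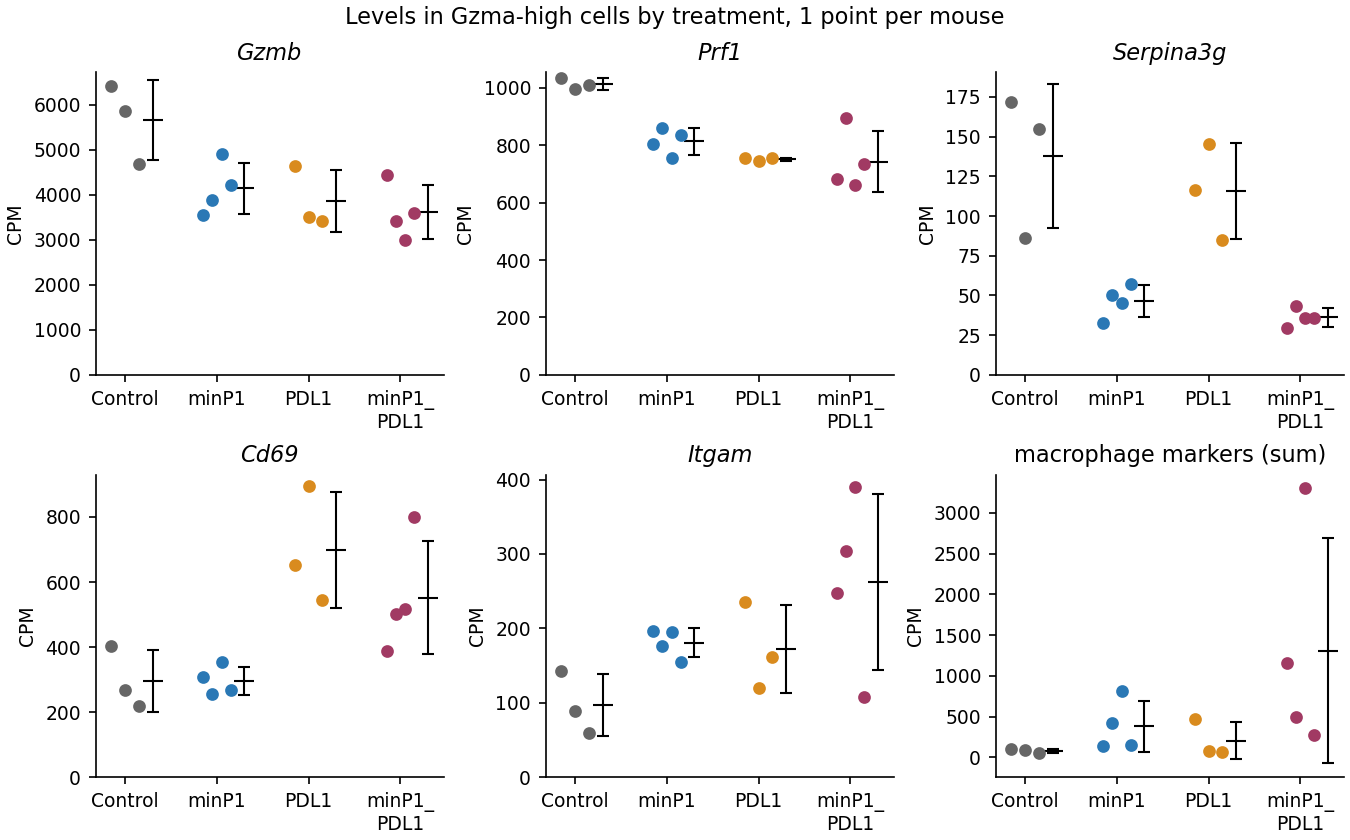
Level in Gzma-high cells (CPM, vertical axes) of 5 genes and of the summed 13 macrophage markers by treatment group, with 1 point per mouse and the mean with SD beside them. Prf1 lies lower in every treated mouse than in the 3 Control mice, Serpina3g is lowest in the 8 mice given minP1, Cd69 is high in PDL1, and the macrophage markers reach 3302.4 CPM in minP1_PDL1_3.

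Some of the smallest p values rested on few cells. As 1 cell can hold many reads, no fold is given against a group without reads. Slx4, a scaffold of DNA repair nucleases, had no read in the 159 minP1_PDL1 members. It had 98 reads in 10 of 143 Control members, 26 of them in 1 cell. Its adjusted p was 0.248 in edgeR and 0.00165 in DESeq2, and 0.00951 in DESeq2 without cells with macrophage reads. DESeq2 also called Slx4 for both agents against PDL1 (adjusted p = 0.00136), against minP1 (0.000983) and for the interaction (0.0283), where edgeR gave 0.311, 0.304 and 1.000. The Gzma-low cells of the 4 minP1_PDL1 mice had Slx4 at 2.9 to 44.5 CPM. Card6, a CARD family protein, had no read in the 143 Control members and reads in 9 of 208 minP1 and 10 of 121 PDL1 members. Its adjusted p was 1 for both in edgeR and 0.0779 and 0.00157 in DESeq2, with 0.00897 for PDL1 without cells with macrophage reads. Of Itgam, the minP1_PDL1 mean was 262 ± 118 CPM against 96.9 ± 42.0 in Control (log2 1.38, adjusted p = 0.572 in edgeR and 0.0323 in DESeq2). The macrophage markers, which Itgam accompanies in myeloid cells, summed to 52.5 to 97.2 CPM in Control members, 141.6 to 809.3 in minP1, 60.1 to 465.4 in PDL1 and 278.2 to 3302.4 in minP1_PDL1. Dendritic cell markers had their highest mean in Control. They summed to 391.8 to 1735.0 CPM in Control members, 183.8 to 1395.7 in minP1, 158.5 to 247.6 in PDL1 and 205.0 to 651.8 in minP1_PDL1. Neutrophil markers summed to 36.1 to 1242.5 CPM over all mice. Cells with reads of these 2 kinds were not left out in any alternative. Without cells with macrophage reads the DESeq2 adjusted p of Itgam was 0.615, and DESeq2 called 1, 5, 19, 7, 24 and 5 genes in the order above.

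Differences in proliferation and depth did not pass. Mki67 at 1 CP10k or more was found in 13.6% ± 2.29 of Control, 10.8% ± 7.13 of minP1, 18.6% ± 4.78 of PDL1 and 16.6% ± 4.71 of minP1_PDL1 members (adjusted permutation p = 0.714). The median reads per member were 34880 ± 5110, 30316 ± 5030, 32930 ± 6210 and 29218 ± 8135 in the same order (adjusted permutation p = 0.791). Total reads of kept cells were 26007834 to 51230461 per mouse.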

How the data were processed

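The authors used cutadapt 2.10 for trimming, Bowtie2 2.3.4.1 for alignment to the mm10 transcriptome and Seurat 2.3.4 afterwards, per the labels and the submitters' processing notes. The deposited values are whole-number counts of 22836 genes in 8262 barcodes. With a median of 10 per nonzero entry and 18.0% of entries equal to 1, they are reads not collapsed to molecules. A count of reads is therefore no count of molecules. The 147 barcodes of no mouse (141 named as doublets, 6 without a hashtag) were left out, which is how doublets were treated, as were 383 over 25% mitochondrial reads.

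Members and gene lists were chosen with earlier results of these data known. Counts were summed per mouse, with at least 10 cells, and tested with edgeR 4.0.16 (quasi-likelihood, TMM, filterByExpr, two-sided, Benjamini-Hochberg), Gzma-high against Gzma-low with the mouse as a block, and treatment over 4 groups. DESeq2 1.42.0 on R 4.3.3 was an alternative. Shares and other measures of cells were compared by permutation with 100000 draws over the 4 groups, and by exact permutation for pairs. The scripts were tested on simulated data. Up to 12 genes in each direction (adjusted p under 0.05, at least 2-fold, in every mouse), up to 6 members of a list, a fixed set of NK genes, and the 3 smallest p of each treatment comparison could be named. Prf1, Gzmb and Itgam belong to the fixed set. Klra12, and list members that did not pass, were chosen after their values were seen. Detection beside depth was also computed with cells thinned to 10000 reads. RefSeq promoters matched 18 of the 28 higher and 21 of the 24 lower genes. Alternatives were another normalization, no filter on low counts, other limits of Gzma and mitochondrial reads, leaving out the 10% of cells with the most genes, the replicate number as a block, and each mouse left out. Leaving out cells with macrophage reads was added after the data had been seen.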

Additional observations from a re-analysis of the deposited data

Results flagged for a closer look

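In minP1_PDL1_4 the median mitochondrial share of Gzma-high cells was 4.75%, under the 5.41% to 5.50% of the other 3 mice of its group, and this mouse also had the lowest share of Gzma-high cells in the gate. Klra8 was read at 0.401 CPM in minP1_3 and at 0 in the other mice, which is 1 read. Of 67 sets of 4 mice examined 2 held such a distant mouse, and chance gives about 1 in 20.

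Outside the gate, 331 cells had Gzma at 20 CP10k or more and met every other limit but had Ncr1 under 1 CP10k. Of these, 217 had a read of Klrk1 or Klrb1c. They entered none of the comparisons.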

How the results depend on the processing

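Of 7885 genes 52 differed between Gzma-high and Gzma-low cells, against 295 in DESeq2, which held all 52, and 147 with no filter on low counts, which held 50. Leaving out 1 mouse at a time gave 43 to 56. Of 770 alternative values for the 35 genes named by rule in this comparison none changed sign, 59 lost the call, and 27 genes kept it throughout. Treatment calls were 0 in edgeR. For minP1, PDL1 and both agents against Control, both against PDL1, both against minP1 and the interaction, DESeq2 called 5, 6, 41, 5, 8 and 3, and 1, 5, 19, 7, 24 and 5 without cells with macrophage reads. For both agents against Control there were 10 calls with no filter and 0 to 2 on leaving out 1 mouse (2 without minP1_PDL1_1). For both against minP1 there was 1 without the 10% of cells with the most genes. The other comparisons kept 0 on leaving out each mouse. With the replicate number as a replicate block 0 genes passed in each comparison. The numbers do not pair the mice (19 same-numbered pairs, r from -0.034 to 0.048). The adjusted p of the share within the gate ranged from 0.00948 (without minP1_PDL1_2) to 0.428 on leaving out 1 mouse, and that among kept cells from 0.656 to 0.929. Where no cause is given, the cause was not tested. Members number 32 to 66 per mouse, so a gene read in a few percent of cells rests on single cells.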
